A study of Mus musculus with 12 samples.

Results

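Tet1, Tet2 and Tet3 encode the 3 mammalian TET dioxygenases, and their transcripts were followed through RNA sequencing of mouse germ cells in which Tet1 itself had been altered. The genes were chosen by name, and all 3 rows were found among the 35976 gene rows of the deposited count table. All 3 passed the filter on low counts, which left 16166 genes tested. The cells were primordial germ cells, from which eggs and sperm arise, taken from female E14.5 embryos and sorted by an Oct4-GFP reporter. The 4 groups of 3 libraries each were V (Tet1V/V, described as stalling at 5-hydroxymethylcytosine), HxD (Tet1HxD/HxD, catalytically dead), KO (Tet1-/-) and WT. The reporter sort was common to all groups. The sources used here do not give the base changes of the V and HxD alleles, the deleted part in KO or the strain. They also do not tell whether replicates were separate embryos, and the p-values therefore speak only of spread among libraries, part or all of which may be technical.

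TET enzymes use iron, oxygen and alpha-ketoglutarate to oxidize 5-methylcytosine in DNA to 5-hydroxymethylcytosine and then to further oxidized bases, which the glycosylase TDG can excise so that repair restores cytosine. TET1 is the member best known from embryonic stem cells and primordial germ cells, where it acts in the erasure of imprints and the demethylation of meiotic gene promoters. TET2 is best known from blood cells and TET3 from the egg and zygote. The comparisons below ask how much transcript of each Tet gene was present with each Tet1 genotype.

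The name HxD refers to the histidine and aspartate of the iron-binding triplet that all TET enzymes share. The coding bases around this triplet show what kind of site the catalytically dead allele concerns and how alike the 3 genes are there. The sequences below are from GENCODE M21 transcripts (build GRCm38, strand as transcribed), 57 coding bases each, with the histidine and aspartate codons in capitals. They are reference sequence, not reads of the mutant animals.
Tet1 (chromosome 10, minus strand, coding bases 4930 to 4986): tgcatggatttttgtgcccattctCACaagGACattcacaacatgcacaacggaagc
Tet2 (chromosome 3, minus strand, coding bases 3883 to 3939): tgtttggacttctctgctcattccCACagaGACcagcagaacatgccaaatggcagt
Tet3 (chromosome 6, minus strand, coding bases 3229 to 3285): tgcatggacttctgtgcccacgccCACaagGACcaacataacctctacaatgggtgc
The histidine and aspartate codons were written with the same bases in the 3 genes. Over the 57 bases, Tet1 and Tet3 were identical at 42, and Tet1 and Tet2 at 39, as were Tet2 and Tet3. In Tet1 the pair is codons 1652 and 1654 of 2039, counted from the start codon of this transcript. The deposited values are counts over whole genes, so whether the mutant codons were present in the reads was not analysed here.

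Levels are given as CPM, a gene's reads scaled to one common library size, with the library totals corrected by the TMM method. Total counts ran from 18471158 to 29495313 per library, and genes with a count from 12568 to 17614. HxD1 and KO3 captured the fewest genes, at 12815 and 12568. All 8 germ cell markers fixed for the check (among them Pou5f1, Ddx4 and Dazl) were present in every library. Pou5f1 encodes Oct4, on which the cells were sorted, so it is no separate check. Presence does not mean like levels. In V, HxD, KO and WT, Dazl averaged 685.7, 753.2, 719.2 and 1598.4 CPM and Ddx4 421.8, 473.7, 441.8 and 662.3 CPM. Pou5f1 went the other way, at 546.1, 449.5, 460.0 and 248.0 CPM. The 10 gonadal somatic markers summed to 9.32 to 40.9 CPM in V, 6.71 to 15.4 in HxD, 5.38 to 17.6 in KO and 10.1 to 33.7 in WT, the highest values being V1 and WT1. Among them Foxl2, which marks pregranulosa cells, was at 0 in 7 of 12 libraries, and the others ranged from Wnt4, at 0 in none, and Kitl and Pdgfra, at 0 in 2 each, to Lhx9, at 0 in 9. The 4 endothelial markers summed to at most 4.98 CPM, with Tek at 0 in 1 library, Cdh5 in 9, Kdr in 10 and Emcn in all 12. The 5 blood markers summed to at most 13.7 CPM, each being at 0 in 5 to 10 libraries. A zero count was not equally common in all libraries. Of 2936 genes of low level, 1.77% were at 0 in HxD3, 43.7% in HxD1 and 45.7% in KO3. KO3 had 7 of the 10 somatic markers at 0, yet their sum there was 17.6 CPM, the highest in KO. Zeros of single markers therefore do not measure purity. The part of other cell types in the Tet differences was not tested.

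Tet1 was the most abundant Tet transcript in these germ cells. Divided by coding length, the WT libraries held 26.5 ± 10.4 CPM per kb of Tet1, 6.19 ± 1.38 of Tet2 and 2.91 ± 0.51 of Tet3 (SD, n = 3 each). On this scale the order Tet1 above Tet2 above Tet3 was found in 12 of 12 libraries. Of the reads that fell on the 3 genes, Tet1 took 68.3% in WT1, 76.4% in WT2 and 79.3% in WT3. In the mutants its share lay between 80.3% and 83.5% in V, between 72.7% and 86.1% in HxD and between 68.6% and 72.1% in KO. Coding length stands in for the counted length, since the authors' annotation is unknown. The same Tet1 length was used for KO, and the KO shares were not corrected for the deleted part. The coding parts of Tet1, Tet2 and Tet3 are 6117, 5760 and 5409 bases, but the full transcripts are 14369, 9021 and 5944 bases. Division by full length would narrow the gaps between the genes. In HxD1, with 26.4 CPM of Tet2 and 17.6 CPM of Tet3, it would put Tet3 slightly above Tet2.

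**Figure D1:**
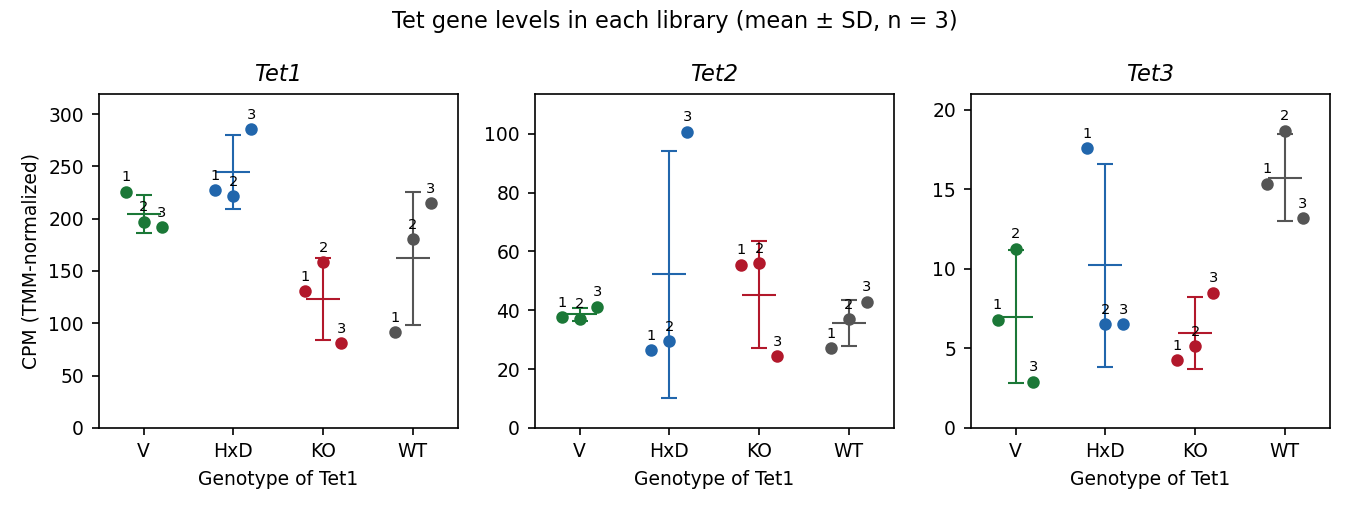
CPM (vertical axis) of Tet1, Tet2 and Tet3 in each of the 12 libraries, by genotype of Tet1. Points are libraries with their replicate number, the wide tick is the mean and the bars are ± 1 SD (n = 3). The V and HxD points of Tet1 lie between 192.0 and 285.8 CPM, above the KO points at 80.8 to 158.3 CPM, while WT covers 91.4 to 215.0 CPM. HxD3 stands alone for Tet2 and HxD1 for Tet3.

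Tet1 transcript was present in every genotype, the knockout included. It was at 225.7, 197.0 and 192.0 CPM in V1, V2 and V3, at 227.0, 221.7 and 285.8 CPM in the HxD libraries, at 130.7, 158.3 and 80.8 CPM in KO, and at 91.4, 180.1 and 215.0 CPM in WT. The V and HxD libraries were all above the KO libraries, and WT overlapped V and KO but not HxD. The counts cover the whole gene, so Tet1 reads in KO do not check that label while the deleted part is unknown. In a bulk sample, fewer cells with a transcript and less transcript per cell cannot be told apart. Any part of Tet1 missing from KO transcripts would also leave fewer bases to count. The comparisons of Tet1 with KO are therefore of reads on the gene, and the part of a lost stretch in them was not tested.

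A gene was called at a Benjamini-Hochberg adjusted p under 0.05, and none of the 6 comparisons of Tet1 passed. The HxD libraries averaged 244.8 ± 35.5 CPM and the KO libraries 123.2 ± 39.3 CPM (SD, n = 3 each), a log2 fold change of 0.99 with a 95% interval of 0.49 to 1.49. By unadjusted p this was rank 4 of the 16166 genes in HxD against KO, yet the adjusted p was 1 (edgeR, quasi-likelihood). In that comparison 0% of genes were called at an adjusted p under 0.05 and 514 genes, 3.18%, had an unadjusted p under 0.05. DESeq2 called 21 genes and limma-voom 0, and the DESeq2 adjusted p for Tet1 was 0.0869. Groups that do not overlap with HxD higher were seen for 4.92% of all genes. The call was gained without WT1 (adjusted p = 0.0288) and without KO2 (adjusted p = 0.0435), with log2 fold changes of 0.99 and 1.22. It was also gained with no filter on low counts (adjusted p = 0.000845), and over all alternatives the adjusted p ran from 0.000845 to 1.

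V against KO gave a smaller Tet1 difference in the same direction. V averaged 204.9 ± 18.1 CPM (SD, n = 3), and the log2 fold change over KO was 0.73, with an interval of 0.24 to 1.23 (edgeR, adjusted p = 0.945). No gene in the table was called in V against KO (0%), while 747 (4.62%) had an unadjusted p under 0.05 and DESeq2 called 15. Groups that do not overlap with V higher were seen for 6.19% of genes. V against HxD had a Tet1 log2 fold change of -0.26 (interval -0.75 to 0.23, adjusted p = 1), with 0% of genes called by edgeR, 14 genes by DESeq2 and 326 (2.02%) at an unadjusted p under 0.05. The interval leaves room for Tet1 to be from 0.595 to 1.18 times the HxD level in V.

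The Tet1 estimates against WT depended on single WT libraries, which differed by 2.35-fold between WT3 and WT1. The log2 intervals were -0.15 to 0.83 for V, 0.10 to 1.09 for HxD and -0.89 to 0.10 for KO (edgeR, adjusted p = 0.709, 0.607 and 0.484). The shares of all genes called in these comparisons were 0.155%, 0.0309% and 1.22%. HxD lay above WT without overlap, as did 6.43% of all genes. The 3 estimates share the WT libraries and moved together with them: without WT1 the log2 fold changes were 0.05 for V, 0.31 for HxD and -0.68 for KO, and without WT3 they were 0.60, 0.85 and -0.14. A single test for any difference of Tet1 among the 4 genotypes had an F of 6.22 (edgeR, adjusted p = 0.205), where 39 genes, 0.241%, were called. That test passed without WT1, WT3 or KO2 (adjusted p = 0.0415, 0.0316 and 0.0456).

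**Figure D2:**
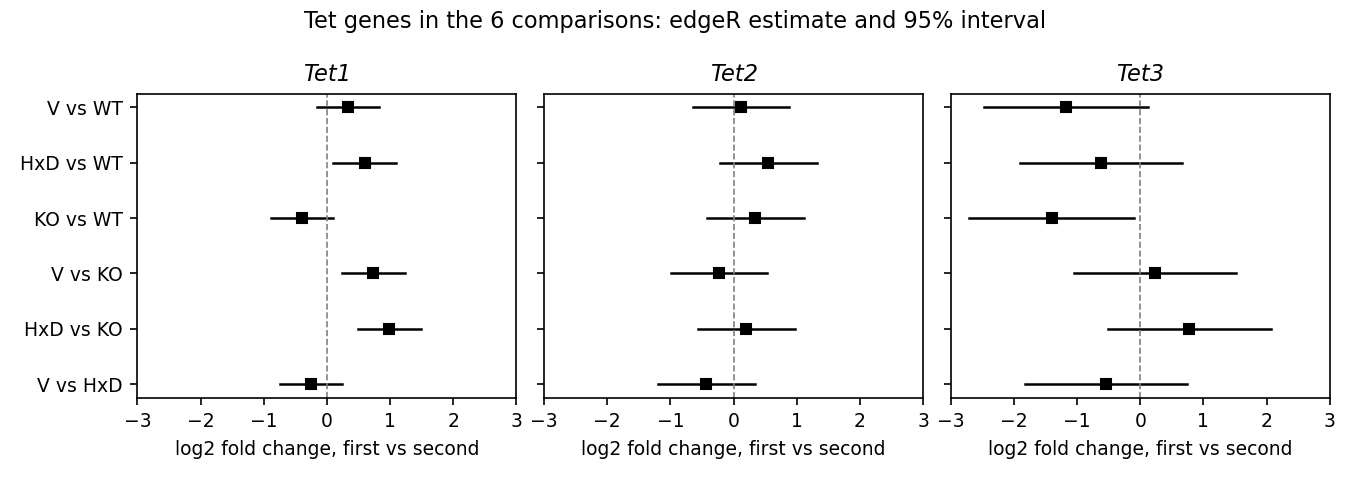
Log2 fold change (horizontal axis, first genotype over the second) of each Tet gene in the 6 comparisons listed down the page. Squares are edgeR estimates and lines their 95% intervals, not adjusted for the number of genes. For Tet1 the intervals of HxD against KO, V against KO and HxD against WT lie above 0, for Tet3 that of KO against WT lies below 0, and none was called after adjustment.

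WT1, the WT library with the least Tet1, was also the one with the most meiotic transcript. Stra8, the gene that drives meiotic entry, was at 977.1 CPM in WT1, 423.0 in WT2 and 247.1 in WT3, the reverse of the order of Tet1. Over all 12 libraries, Tet1 and the mean log2 CPM of 10 meiotic genes had a Pearson r of -0.263 (permutation p = 0.415, adjusted p = 0.467 over 9 relations) and a Spearman rho of -0.098 (permutation p = 0.765). Without KO3 and WT1, the libraries farthest from the median of Tet1, r was 0.036. Within genotypes, with group means removed, r was -0.727 (exact permutation within genotype, p = 0.0116, adjusted p = 0.066). It did not pass after adjustment. The meiotic means lay lower in the mutants, at 5.27 to 6.39 in V, 5.91 to 6.14 in HxD and 5.29 to 5.90 in KO, against 7.01 to 8.07 in WT (log2 CPM).

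Tet2 was at 37.7, 37.1 and 41.2 CPM in V1, V2 and V3, and at 26.4, 29.4 and 100.8 CPM in HxD1, HxD2 and HxD3. It was at 55.5, 56.1 and 24.3 CPM in KO and at 27.1, 37.0 and 42.9 CPM in WT. All genotypes overlapped, and HxD3 alone was far above the rest, while HxD1 and KO3 were the lowest. HxD3 captured the most genes with a count of all libraries (17614), and HxD1 and KO3 the fewest. The group means were 38.7 ± 2.21 CPM in V, 52.2 ± 42.1 in HxD, 45.3 ± 18.2 in KO and 35.7 ± 7.94 in WT (SD, n = 3 each).

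No comparison of Tet2 was called, and each 95% interval included 0. The log2 fold changes from WT were 0.12 in V, 0.55 in HxD and 0.35 in KO (edgeR, adjusted p = 0.981, 0.830 and 0.754), with intervals of -0.65 to 0.88, -0.22 to 1.31 and -0.42 to 1.11. The KO interval spans Tet2 levels from 0.749 to 2.16 times the WT level. HxD3 set the sign of the HxD estimate: without it the log2 fold change from WT was -0.36. Any difference among the 4 genotypes had an adjusted p of 0.981 (edgeR).

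Tet3 had the fewest reads, and the mutants were mostly below WT. It was at 6.80, 11.3 and 2.90 CPM in V, at 17.6, 6.501 and 6.53 CPM in HxD, at 4.23, 5.13 and 8.50 CPM in KO, and at 15.4, 18.7 and 13.2 CPM in WT. Each V and KO library was below each WT library, while HxD1 lay within the WT range. The smallest count, 82 in V3, has an exact Poisson 95% interval of 65.2 to 101.8, and the largest, 499 in HxD1, one of 456.2 to 544.8. The libraries thus differed by more than counting error, which is all these intervals cover.

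The Tet3 differences from WT were not called either. KO averaged 5.96 ± 2.25 CPM and WT 15.7 ± 2.76 CPM (SD, n = 3 each), a log2 fold change of -1.40 (interval -2.71 to -0.10, adjusted p = 0.338 by edgeR). V averaged 6.99 ± 4.18 CPM, with a log2 fold change from WT of -1.17 (interval -2.47 to 0.13, adjusted p = 0.566). Groups that do not overlap with the mutant lower were seen for 8.36% of all genes in KO and 7.48% in V, and both comparisons use the same WT libraries. HxD averaged 10.2 ± 6.39 CPM, with a log2 fold change from WT of -0.62 (interval -1.91 to 0.66, adjusted p = 0.974). Without HxD1 it was -1.27. Between mutants the Tet3 log2 fold changes were 0.78 for HxD against KO, 0.23 for V against KO and -0.55 for V against HxD, each with an adjusted p of 1 (edgeR). The first was 0.13 without HxD1 and 1.13 without KO3. No alternative called Tet3 in KO against WT, the adjusted p running from 0.222 to 0.603 and the log2 fold change from -1.75 to -1.20.

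In each mutant genotype the library with the most Tet3 was the one that captured the fewest genes. These were V2 with 14075 genes, HxD1 with 12815 and KO3 with 12568. The WT libraries, at 15036, 15150 and 14332 genes, did not show this order, Tet3 being highest in WT2. Over 12 libraries Tet3 and the number of genes with a count had a Pearson r of -0.541 (permutation p = 0.0721, adjusted p = 0.216 over 9 relations) and a Spearman rho of -0.448 (permutation p = 0.1502). Without V3 and WT2 r was -0.494. Within genotypes r was -0.748 (exact permutation within genotype, p = 0.0463, adjusted p = 0.139). Tet2 ran the other way, with r = 0.597 (permutation p = 0.0366, adjusted p = 0.210), rho = 0.608 (permutation p = 0.0398), 0.291 without HxD3 and KO3, and 0.630 within genotypes (exact permutation p = 0.132). Neither passed after adjustment, and the part of gene capture in the Tet3 and Tet2 differences between genotypes was not tested.

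**Figure D3:**
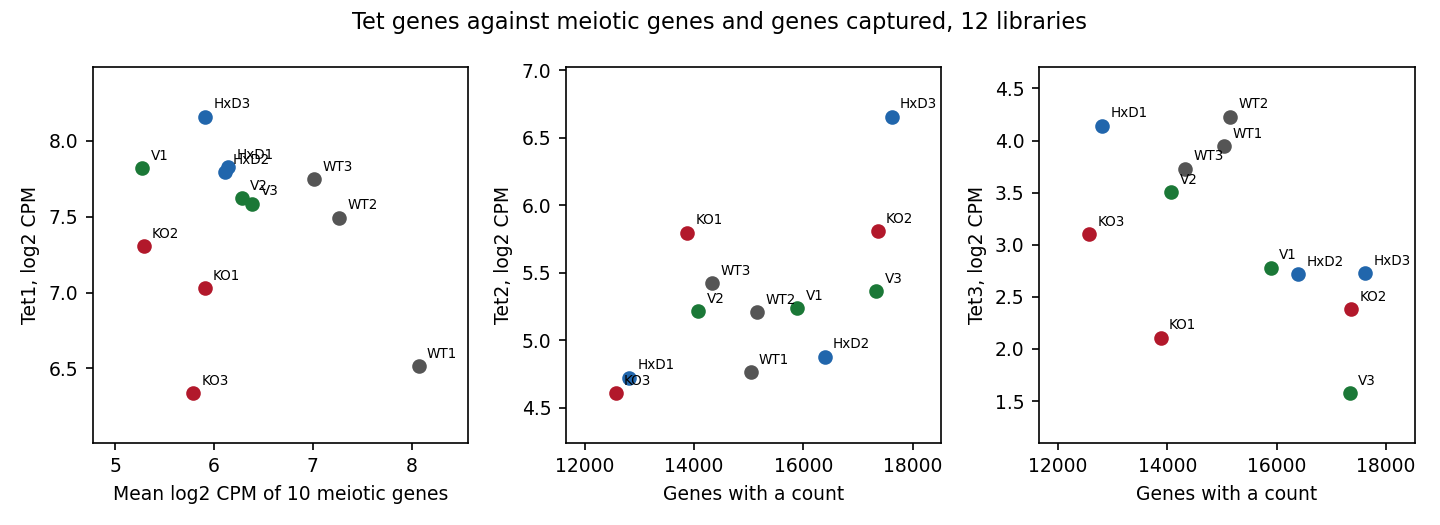
Left, Tet1 (log2 CPM) against the mean log2 CPM of 10 meiotic genes. Middle and right, Tet2 and Tet3 (log2 CPM) against the number of genes with a count in the library. Each point is 1 of the 12 libraries, named and coloured by genotype. WT1 lies at the lower right of the first panel, and HxD1 and KO3 at the left of the other panels, with little Tet2 and, within their genotypes, the most Tet3.

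No pair of Tet genes had a correlation across libraries that passed after adjustment. Tet1 and Tet2 had a Pearson r of 0.456 over 12 libraries (permutation p = 0.137, adjusted p = 0.233) and a Spearman rho of 0.231 (permutation p = 0.469), and r was 0.048 without KO3 and WT1. Within genotypes it was 0.671 (exact permutation p = 0.0147, adjusted p = 0.066). Tet2 and Tet3 had an r of -0.448 (permutation p = 0.143, adjusted p = 0.233), a rho of -0.559 (permutation p = 0.0620), an r of -0.594 without HxD3 and KO3, and -0.504 within genotypes (exact permutation p = 0.204). Tet1 and Tet3 had an r of -0.059 (permutation p = 0.856) and a rho of 0.063 (permutation p = 0.850), with 0.284 without KO3 and WT1 and -0.229 within genotypes (exact permutation p = 0.315). Tet3 and the meiotic mean had an r of 0.582 (permutation p = 0.0467, adjusted p = 0.210) and a rho of 0.524 (permutation p = 0.0845), with 0.674 without V3 and WT2. Within genotypes it was -0.030 (exact permutation p = 0.947), so the relation did not hold there. The other two relations, Tet2 with the meiotic mean and Tet1 with the number of genes with a count, had an r of -0.308 (permutation p = 0.326) and 0.439 (permutation p = 0.156), a rho of -0.252 (permutation p = 0.431) and 0.343 (permutation p = 0.276), and within genotypes an r of -0.317 and 0.368 (exact permutation p = 0.133 and 0.230). Without the libraries farthest from the median these were -0.461 and 0.215. None of the 9 relations passed after adjustment, pooled or within genotypes, and the values of a library share its scaling.

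Ratios of 2 Tet genes within a library do not depend on that scaling. Gene length cancels when they are compared between libraries, unless KO transcripts of Tet1 lack a part. The deleted part in KO is unknown, so the KO ratios with Tet1 may also hold a difference in counted length, which was not tested. They are given without a test. Reads of Tet1 per read of Tet2 numbered 5.99, 5.31 and 4.66 in V, 8.61, 7.55 and 2.84 in HxD, 2.35, 2.82 and 3.32 in KO, and 3.37, 4.87 and 5.02 in WT. The KO ratios were all below the V and WT ratios. With each of the other 16165 tested genes in the place of Tet2, KO lay below V in this way for 34.6% and below WT for 8.73%. HxD3 alone brought HxD into the KO range. Reads of Tet1 per read of Tet3 averaged 38.9 ± 24.8 in V, 30.3 ± 15.8 in HxD, 23.7 ± 12.3 in KO and 10.6 ± 5.25 in WT (SD, n = 3 each). Every V library was above every WT library, at 17.5 to 66.1 against 5.95 to 16.3, as for 11.5% of genes in the place of Tet3, while HxD1 and KO3 lay within the WT range. Tet2 per Tet3 ran from 3.29 to 14.2 in V, 1.499 to 15.4 in HxD and 2.87 to 13.1 in KO, against 1.77 to 3.25 in WT. V lay above WT without overlap, as for 8.59% of genes in the place of Tet3.

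**Figure D4:**
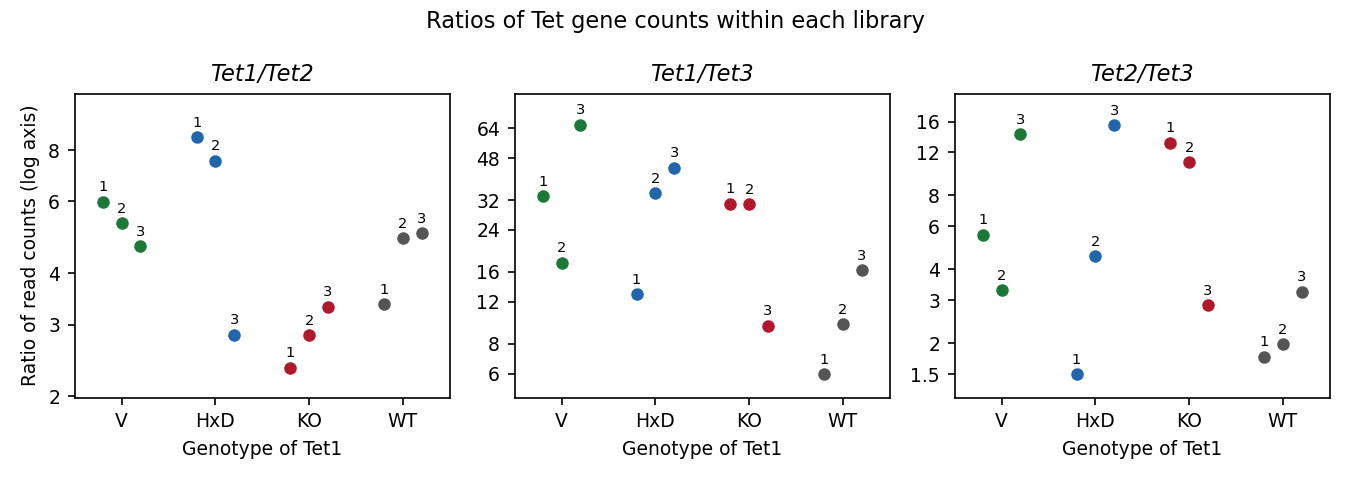
Ratio of read counts of 2 Tet genes in the same library (vertical log axis), by genotype, with the replicate number beside each point. KO has Tet1/Tet2 ratios of 2.35 to 3.32, below V at 4.66 to 5.99, and WT has the lowest mean Tet1/Tet3 and Tet2/Tet3 ratios.

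Spread between the libraries of a genotype was pooled over the 4 genotypes and set beside that of genes at a like level. This SD was 0.43 log2 units for Tet1, where the median of the 500 tested genes nearest in level was 0.22, and 98.4% of these varied less. For Tet2 it was 0.66 against a median of 0.35, with 98.0% varying less. Tet3, at 0.70, was at the median of its own 500 neighbours (0.70, with 48.8% varying less). The spread was not even over genotypes. The coefficient of variation of Tet1 was 8.86% in V, 14.52% in HxD, 31.9% in KO and 39.3% in WT, and that of Tet2 was 5.73% in V, 80.7% in HxD, 40.1% in KO and 22.3% in WT. Tet1 had 1835 to 7659 counts per library and Tet2 553 to 2701.

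The genes whose pattern over the 12 libraries was most like that of each Tet gene were ranked by the root mean square difference of mean-centred log2 CPM among 10023 named genes. For Tet1 these were Fbrs (0.24 log2 units), Tspan5 (0.27), Slc30a6, Trak1 and Nsun6 (each 0.29), where the median gene was at 0.63. Tet2 was most like Asxl2 (0.29), Nrip1 (0.30), Kmt2a (0.31), Kmt2c and Prdm15 (each 0.32), with a median of 0.64. Kmt2a and Kmt2c encode histone H3 lysine methyltransferases. Tet3 was most like Nsmf (0.41), Hdac6, a cytoplasmic deacetylase (0.43), Abca1, a cholesterol exporter (0.43), Tep1 (0.46) and Lamb2, a laminin chain (0.47), with a median of 0.91. A gene with no change over the libraries would be at 0.53 from Tet1, 0.55 from Tet2 and 0.81 from Tet3. The named genes were picked as the nearest, so they lie below the median by selection, and their likeness was not tested.

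Genes that act before, with and after the TET enzymes were listed by role, 45 of them in the table and 44 tested. In KO against WT 3 were called higher and 1 lower, beside 0.724% and 0.495% of all genes (117 and 80, or 90 and 95 with DESeq2 size factors). None was called in V or HxD against WT or between mutants at an adjusted p under 0.05 (edgeR). Limma-voom called 0 as well, and DESeq2 called 2 in V and 1 in HxD, beside 143 and 57 over all genes. At an unadjusted p under 0.05 there were 9 in V and 7 in HxD, where 9.69% and 7.25% of all genes had one. The 10 meiotic genes summed to 727.4 to 1337.9 CPM in V, 1021.8 to 1430.9 in HxD and 806.7 to 1237.3 in KO, against 1888 to 3862 in WT, and the part of this difference in the pathway calls was not tested. The median log2 fold change of the list was 0.14 in V, 0.09 in HxD and 0.17 in KO, where all tested genes had medians of 0.00, -0.01 and -0.02. The list was chosen with earlier results of these data known and was not matched to all genes in level. Its calls and medians are therefore a description only.

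Among isocitrate dehydrogenases, which supply alpha-ketoglutarate, 2-hydroxyglutarate dehydrogenases, which remove a competitor of it, and ascorbate transporters, 0 of 9 were called in any comparison. Idh1, the cytosolic isocitrate dehydrogenase, averaged 64.9 ± 9.82 CPM in V, 54.4 ± 6.72 in HxD, 65.7 ± 7.44 in KO and 73.8 ± 15.0 in WT. Idh2, its mitochondrial relative, averaged 170.8 ± 29.9, 164.1 ± 11.4 and 181.4 ± 17.6 CPM in V, HxD and KO, against 156.9 ± 4.53 in WT (SD, n = 3 each).

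Of 8 TET partners and regulators, Nanog rose in KO. Nanog, a pluripotency factor that binds TET1 and TET2 in embryonic stem cells, was at 137.8, 146.1 and 121.3 CPM in KO and at 42.9, 63.2 and 95.4 CPM in WT, with no overlap, as for 8.17% of all genes with KO higher (log2 fold change 1.01 ± 0.23 SE, edgeR adjusted p = 0.0273). It was at 156.8, 91.0 and 115.8 CPM in V and at 107.2, 127.3 and 116.1 CPM in HxD. The log2 fold changes from WT were 0.85 in V and 0.80 in HxD, not called (edgeR, adjusted p = 0.143 and 0.343). HxD lay above WT without overlap, as did 6.43% of all genes, while V overlapped WT. The KO call of Nanog was lost without KO2, WT1 or WT2, with adjusted p up to 0.135. Ogt, the O-GlcNAc transferase bound by TET proteins, averaged 217.8 ± 12.3 CPM in V, 203.8 ± 18.6 in HxD and 260.6 ± 53.8 in KO, against 197.9 ± 45.2 in WT. Sin3a, the corepressor scaffold that TET1 recruits, averaged 330.5 ± 50.1, 324.2 ± 27.8 and 333.1 ± 39.0 CPM in V, HxD and KO, against 346.8 ± 50.9 in WT. Neither was called.

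Of 17 excision and repair genes, Lig3 and Gadd45a rose in KO. Lig3, the ligase that seals repaired bases, was at 116.6, 164.5 and 154.6 CPM in KO and at 75.7, 87.3 and 76.2 CPM in WT (log2 fold change 0.86 ± 0.19 SE, edgeR adjusted p = 0.0172), and its call was lost without KO2 or WT1. V and HxD also lay above WT without overlap, at 96.9 to 104.6 and 95.5 to 112.1 CPM, as did 8.7% and 6.43% of all genes, and were not called. Gadd45a, a stress-induced gene linked to repair-based demethylation, was at 38.4, 35.4 and 82.8 CPM in KO and at 25.8, 20.5 and 20.9 CPM in WT (log2 fold change 1.22 ± 0.30 SE, edgeR adjusted p = 0.0419). KO3 alone held the highest value, and without it the log2 fold change was 0.71 (adjusted p = 0.323). The call was also lost without WT1, WT2 or WT3. Gadd45a in V and HxD also lay above WT without overlap, at 38.9 to 51.7 and 28.7 to 38.5 CPM, as did 8.7% and 6.43% of all genes. The log2 fold changes were 0.98 and 0.55, not called (edgeR, adjusted p = 0.213 and 0.732). Tdg, the glycosylase that removes the further oxidized bases, averaged 16.5 ± 0.399 CPM in V, 12.7 ± 2.37 in HxD and 19.98 ± 1.10 in KO, against 13.1 ± 2.43 in WT (SD, n = 3 each). Each V and KO library was above each WT library, as for 8.7% and 8.17% of all genes, and Tdg was not called in V or KO (edgeR, log2 fold changes of 0.33 and 0.60, adjusted p = 0.924 and 0.540).

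Of 7 tested methylation writers and protectors, Uhrf1 fell in KO. Uhrf1, which brings DNMT1 to replicating DNA, was at 42.7, 42.2 and 60.4 CPM in KO and at 102.6, 113.3 and 78.2 CPM in WT (log2 fold change -1.02 ± 0.23 SE, edgeR adjusted p = 0.0223). It was at 44.7, 56.2 and 54.6 CPM in V and at 52.1, 57.5 and 45.6 CPM in HxD, so all 9 mutant libraries were below all 3 WT libraries. Of all genes, 7.48% lay below WT without overlap in V, 5.77% in HxD and 8.36% in KO. These comparisons share the WT libraries, and the share of genes below WT in all of them was not counted. Of the excision and repair genes, Lig3, Gadd45a, Ung and Parp1 had every mutant library above every WT library, so such a separation was not particular to Uhrf1. The log2 fold changes in V and HxD were -0.92 each and not called (edgeR, adjusted p = 0.0841 and 0.193). The KO call was lost without KO1, KO2, WT1 or WT2, with adjusted p up to 0.0898. Dnmt1, the maintenance methyltransferase, averaged 689.8 ± 0.162 CPM in V, 740.4 ± 40.5 in HxD and 802.2 ± 89.8 in KO, against 776.3 ± 92.6 in WT, and was not called. Of the readers of oxidized cytosine, 0 of 3 were called. In the fits that used only the KO and WT libraries, none of the 4 KO calls was kept.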

How the data were processed

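The authors deposited 1 table of whole-number read counts per gene symbol, not normalized, for 12 libraries. Per the labels' protocols, each library came from 5000 cells through oligo d(T) selection. Per the submitters' processing notes, the tools were featureCounts 2.0.3, STAR 2.7.10b, Trim Galore 0.6.7, FastQC and SAMtools 1.9, and the builds GRCm39 and mm10 are named without a role, so no gene coordinates are given. Annotation, strand and multi-mapping settings are unknown here, so reads of overlapping or antisense genes could not be told apart.

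Counts were tested with edgeR 4.0.16 (R 4.3.3; quasi-likelihood F test, two-sided, TMM, default filterByExpr, 1 fit of 12 libraries with group as the only term) in 6 comparisons, with Benjamini-Hochberg adjustment over 16166 genes and calls at an adjusted p under 0.05. Intervals are 95% from the quasi-likelihood standard error. DESeq2 1.42.0, limma-voom (limma 3.58.1), other filters, other scaling, 2-group fits, a replicate block and left-out libraries were alternatives. The test was checked on simulated data. Log2 CPM used a prior count of 2. Correlations used 100000 permutations, and the within-genotype ones all 1296 orders. The smallest chi-square per degree of freedom between replicates was 31.7, so all libraries were counted as separate. The members and lists were chosen with earlier results of these data known. Named were the Tet genes, the called pathway genes (up to 6 per comparison), Tdg, Ogt, Sin3a, Uhrf1, Dnmt1, Idh1 and Idh2, and the 5 genes most like each Tet gene with a mean of at least 5 CPM, predicted genes left out, beside marker genes. Ung and Parp1 were named beside Uhrf1 for a like separation from WT. Vprbp stands for Dcaf1, and Dnmt3l was not tested.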

Additional observations from a re-analysis of the deposited data

How the results depend on the processing

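The Tet results came from 3 libraries per genotype. How far spread between libraries, depth or gene capture limited the comparisons was not tested. With no filter on low counts (22037 genes), Tet1 in HxD against KO passed with a log2 fold change of 1.01 and an adjusted p of 0.000845, the test over 4 genotypes passed at 0.000381, and 2 pathway genes were called in HxD and 3 in V against WT. At a mean of at least 5 CPM 2 pathway genes were called in KO, beside 137 of 10401 genes tested. In fits of only the groups compared there were 0, beside 26 of 13981 genes in KO against WT. DESeq2 called 1 in HxD and 2 in V, beside 57 of 15952 and 143 of 15357 genes. With HxD1, KO1 and KO3 left out together, which leaves KO2 as the only KO library, the log2 fold change of Tet3 in V against HxD was 0.11. By limma-voom Tet2 in HxD against KO was -0.0029. The cause of these shifts was not tested.

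Leaving out 1 library at a time gave log2 ranges of 0.77 to 1.22 for Tet1 in HxD against KO. For Tet2 they were -0.36 to 0.87 in HxD against WT, -0.69 to 0.52 in HxD against KO, -0.75 to 0.48 in V against HxD and -0.044 to 0.27 in V against WT. The sign turned without HxD3 in the comparisons with HxD, also without KO3 in HxD against KO (-0.08), and without WT1 in V against WT. For Tet3 they were -1.08 to 0.10 in V against HxD, turning without HxD1, 0.13 (without HxD1) to 1.13 (without KO3) in HxD against KO, and -0.30 to 0.61 in V against KO, turning without V2. The adjusted p of the Tet1 test over 4 genotypes ran from 0.0316 to 0.298. Pathway calls against WT ran from 0 to 3 in V and 0 to 2 in HxD, both highest without WT3, and from 0 (without WT1) to 5 in KO, with 1 without KO2 or WT2. The r of Tet1 with Tet3 ran from -0.16 to 0.14 and with the meiotic mean from -0.50 to 0.16, both above 0 only without WT1.

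Pairing by replicate number was not seen in deviations from the group means. Same-numbered libraries had a median correlation of -3.03e-05 over 18 pairs, 1 of them over 0.1. Other pairs had -0.0036 over 36 pairs, 4 of them over 0.1. A batch shared by some of the libraries was not tested. With the replicate block, Tet1 in HxD against KO was 0.99 (edgeR, adjusted p = 0.483), no Tet gene was called in any comparison, and calls over all genes in V, HxD and KO against WT were 73, 22 and 285, beside 25, 5 and 197 without the block. DESeq2 called 143, 57 and 476, edgeR with no filter 176, 71 and 464, and the 2-group fits 4, 2 and 26. Leaving out 1 library gave 3 (without V1) to 150 in V, 2 (without WT1) to 55 in HxD and 49 (without WT1) to 425 in KO, each highest without WT3.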
